A study of Sus scrofa with 6 samples.

Results

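Skeletal muscle of Korean native pigs and of Berkshire pigs was compared by RNA sequencing. The 2 muscle libraries, 1 for each breed, were chosen by their tissue label from 6 libraries in all, and all 25322 gene IDs of the deposited tables entered the comparison. In Korean native muscle, genes of glycolysis, glycogen use and fast fibres stood higher. By smaller ratios, so did genes of slow fibres and nuclear genes of mitochondrial respiration. Genes of the extracellular matrix, of fat storage and of the response to fasting and glucocorticoids stood lower, with PDK4 the farthest apart of all genes with a symbol.

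The series covered fat, liver and muscle of Korean native pigs and of Berkshire pigs (Sus scrofa), with 1 library for each breed and tissue. The Korean native pig is a local breed and the Berkshire a commercial breed of British origin. The labels give the breed and the tissue of each library, and RNA was extracted with Trizol from tissue frozen on dry ice. Which muscle was taken, and the age, sex, feeding and genotype of the animals, were not found in the labels. The series title speaks of 3 pigs or tissue samples of each breed, and whether a library holds 1 animal or a pool is not given in the sources used here. With 1 library a breed there is no replicate, and the comparison rests on ratios with counting intervals, without any test. The breed and everything else in which the 2 muscle samples differed cannot be told apart.

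Skeletal muscle is built of fibres that differ in speed and fuel. Fast fibres carry fast isoforms of myosin, troponin and calcium pumps and draw on glycogen and glycolysis, while slow fibres rely more on mitochondria. In fasting, muscle is known to spare glucose by burning fatty acids, and PDK4, a kinase that switches off pyruvate dehydrogenase, is one of the best known genes induced in that state and by glucocorticoids. Fibroblasts, fat cells, blood vessels and immune cells lie between the fibres, and a piece of muscle also yields their RNA.

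The Korean native muscle library held 5897407 counts on genes and the Berkshire muscle library 5982109, within a range of 5897407 to 7912093 over the series. Reads assigned to genes made up 35.3% of the entries in Korean native muscle and 32.8% in Berkshire muscle. Counts were found for 15459 genes in Korean native muscle and for 16072 genes in Berkshire muscle. Levels are given as CPM (counts scaled to a common library size) scaled by the trimmed mean of M values (TMM) over all 6 libraries, with a TMM factor of 0.735 for Korean native muscle and 0.917 for Berkshire muscle. A count of 0 allows a level of up to 0.692 CPM in Korean native muscle and 0.547 CPM in Berkshire muscle, the value of 3 counts. Gene lengths were not used, so levels compare 1 gene between libraries and not genes with each other. Each ratio is followed in brackets by its 95% interval, which covers counting error only.

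Both libraries carried the markers of skeletal muscle. ACTA1, the actin of skeletal muscle fibres, was the most abundant gene, with 71072 CPM in Korean native muscle and 48844 CPM in Berkshire muscle. MYL1, a fast myosin light chain, had 19567 CPM in Korean native and 8686 CPM in Berkshire muscle, and TNNT1, the slow troponin T, had 3782 CPM in Korean native and 2653 CPM in Berkshire muscle. ALB (albumin), the marker of liver, stood at 52.6 CPM in Korean native muscle and 50.5 CPM in Berkshire muscle. CKM and ADIPOQ matched no gene ID. The 10 highest genes took 25.6% of the counts in Korean native muscle and 23.9% in Berkshire muscle, and the 100 highest took 56.6% of them in Korean native and 51.9% in Berkshire muscle. Genes encoded by the mitochondrial genome held nearly equal shares, 17.6% of the counts in Korean native muscle and 17.4% in Berkshire muscle.

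A gene was counted as apart when it was at least 4-fold different and reached at least 10 CPM in 1 muscle library. Of 8252 genes that reached 10 CPM, 103 (1.25%) stood at least 4-fold higher in Korean native muscle and 147 (1.78%) at least 4-fold lower. A symbol was available for 56 of the higher genes and 93 of the lower genes. The whole counting interval lay past 4-fold for 60 of the higher and 63 of the lower genes. At least 16-fold separated the libraries in 16 higher and 14 lower genes. The higher genes together took 1.74% of all counts in Korean native muscle and 0.325% in Berkshire muscle, while the lower genes took 0.580% in Korean native and 4.36% in Berkshire muscle. Just inside the threshold lay SARS1 at 4.01-fold and ASNS at 4.03-fold higher, and EZH2 and LOX, both at 4.02-fold lower. Just outside lay GLRX5 and MAMSTR, at 3.96-fold and 3.94-fold higher, and ASPA and RETSAT, at 3.95-fold and 3.94-fold lower.

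The split between higher and lower depended on the scaling. The median log2 ratio of 10142 genes with at least 5 CPM in 1 muscle library was 0.05, with 52.5% of them higher and 47.5% lower in Korean native muscle. With scaling by total counts the median moved by -0.31 to -0.26, 37.1% of these genes were higher, and 57 genes stood at least 4-fold higher against 238 lower. Ratios below are to be read against that shift. The plot of gene levels in both muscle libraries shows that most genes lay along the diagonal.

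**Figure D1:**
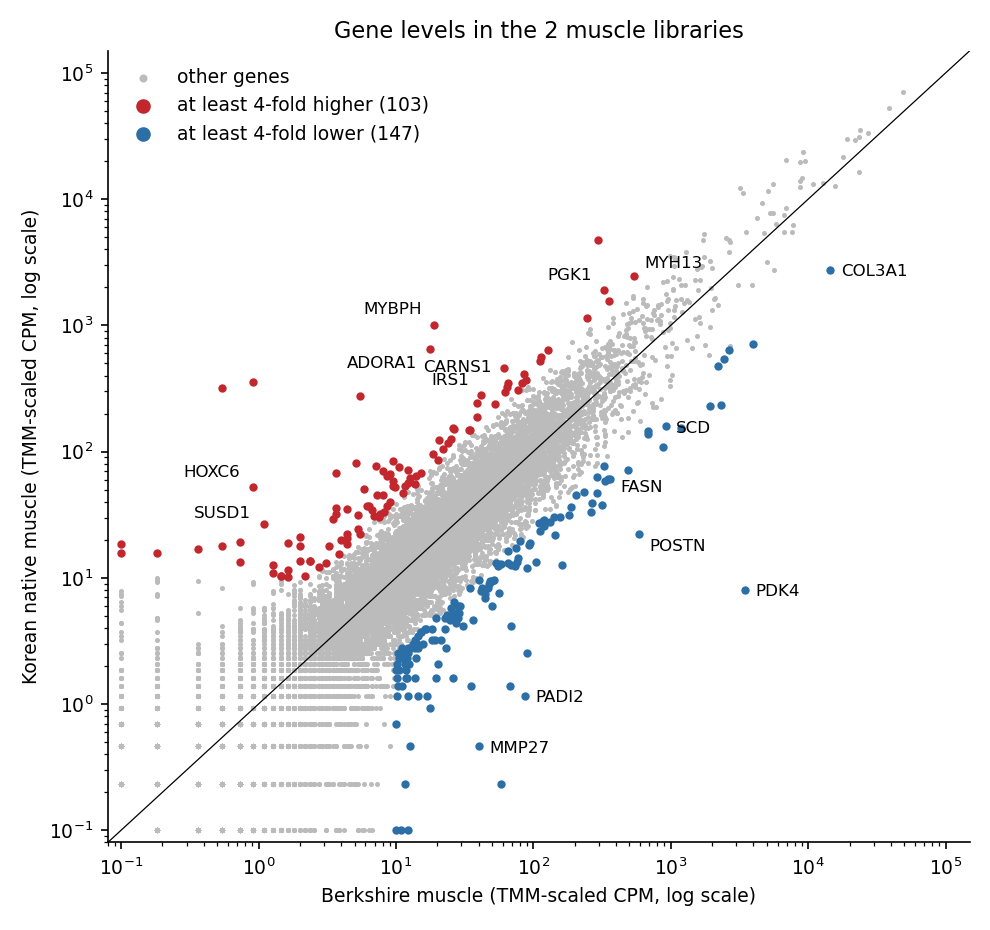
Level of each gene in Korean native muscle (vertical) against Berkshire muscle (horizontal), in TMM-scaled CPM on log scales, with genes at 0 counts drawn at 0.1 CPM and the diagonal marking equal levels. The 103 genes at least 4-fold higher in Korean native muscle lie above the diagonal and the 147 at least 4-fold lower lie under it, with PDK4 and POSTN far to the right at low Korean native levels.

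Genes of glycolysis, the pathway that breaks glucose down to pyruvate and lactate, stood higher in Korean native muscle. A list member counted as measured when it reached 5 CPM in 1 muscle library, so that a gene near that level which passed through 1 library alone had to differ. Of 20 measured members of a list of 23, 14 were higher and 10 of these at least 2-fold, against 11.3% of all genes at least 2-fold higher and 10.6% at least 2-fold lower. The median log2 ratio of the list was 1.00, and its members took 4.24% of all counts in Korean native muscle and 1.98% in Berkshire muscle. PKM, which makes pyruvate in the last step, had 12261 CPM in Korean native against 3213 CPM in Berkshire muscle, higher by 3.82-fold (3.75 to 3.88). PGK1, the first enzyme of the pathway to yield ATP, had 1908 CPM in Korean native and 328 CPM in Berkshire muscle, 5.82-fold (5.53 to 6.12) higher. GPD1, which turns a glycolytic intermediate into glycerol 3-phosphate, reached 1144 CPM in Korean native against 245 CPM in Berkshire muscle, 4.67-fold (4.40 to 4.97) higher. PGK1 and GPD1 were thus the 2 members of this list at least 4-fold higher. PGAM2, the muscle form of phosphoglycerate mutase, stood 3.59-fold (3.48 to 3.71) higher with 3562 CPM in Korean native and 991 CPM in Berkshire muscle. LDHA, which reduces pyruvate to lactate, had 11268 CPM in Korean native and 3364 CPM in Berkshire muscle. The 6 lower members did not include these muscle forms. At least 2-fold lower were ALDOC, the brain form of aldolase, with 24.4 CPM in Korean native and 80.5 CPM in Berkshire muscle, PFKFB3, which makes an activator of phosphofructokinase, with 12.7 CPM in Korean native and 42.5 CPM in Berkshire muscle, and HK1, a hexokinase found in most tissues, with 27.4 CPM in Korean native and 62.3 CPM in Berkshire muscle. In fat 12 of 17 measured members were higher with a median of 0.34, and in liver 6 of 15 with a median of -0.10.

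Genes of glycogen use stood higher as well. Of 15 measured members of a list of 18, 13 were higher, 9 of them at least 2-fold, and the median log2 ratio was 1.26. PYGM, the muscle glycogen phosphorylase, had 13252 CPM in Korean native against 5526 CPM in Berkshire muscle, higher by 2.40-fold (2.37 to 2.43). PHKA1, a subunit of the kinase that activates phosphorylase, had 1140.1 CPM in Korean native and 378 CPM in Berkshire muscle. So the phosphorylase and its activating kinase lay on the same side. PRKAG3 encodes the muscle subunit of AMP-activated protein kinase, in which a pig variant is known to alter glycogen content. It reached 86.2 CPM in Korean native and 24.6 CPM in Berkshire muscle, 3.51-fold (2.87 to 4.30) higher. PPP1R3C, which targets a phosphatase to glycogen, had 119 CPM in Korean native and 34.1 CPM in Berkshire muscle. The lower members were GBE1, the branching enzyme, with 7.38 CPM in Korean native and 16.9 CPM in Berkshire muscle, and PRKAG2, another subunit of AMP-activated protein kinase, with 27.2 CPM in Korean native and 29.7 CPM in Berkshire muscle. GYS2, the liver form of glycogen synthase and outside the list, was also lower with 1.15 CPM in Korean native and 12.2 CPM in Berkshire muscle, and the muscle form GYS1 had 1563 CPM in Korean native and 945 CPM in Berkshire muscle.

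Nuclear genes of mitochondrial respiration were higher too, by smaller ratios. All 21 measured members of the oxidative phosphorylation list of 34 were higher, with a median log2 ratio of 0.87 and 6 of them at least 2-fold, and all 21 were also higher with total counts. COX5A, a subunit of cytochrome c oxidase, had 374 CPM in Korean native and 149.8 CPM in Berkshire muscle, 2.50-fold (2.29 to 2.72) higher. ATP5MC1, of the ATP synthase ring, had 99.8 CPM in Korean native and 39.7 CPM in Berkshire muscle. In fat, 5 of 21 members of the same list were higher, with a median of -0.21, and in liver the median was 0.24. Of 21 measured genes of the tricarboxylic acid cycle, 20 were higher (19 with total counts), with a median log2 ratio of 0.82. SUCLA2, a subunit of succinyl-CoA ligase, had 525 CPM in Korean native and 219 CPM in Berkshire muscle. The 1 lower member was PC, pyruvate carboxylase, which feeds the cycle and stood at 54.4 CPM in Korean native and 126 CPM in Berkshire muscle. Of 13 genes encoded by mitochondrial DNA itself, 9 were higher with a median of 0.39, and 7 were higher with total counts. COX1 had 53009.8 CPM in Korean native and 38456 CPM in Berkshire muscle, whereas ND4 had 16455 CPM in Korean native and 23444 CPM in Berkshire muscle. These 13 genes were therefore divided.

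Genes of fast fibres stood higher in Korean native muscle. In this bulk tissue, fewer cells of a type and less RNA per cell cannot be told apart. Of 12 measured members of the fast fibre list of 19, 11 were higher and 8 at least 2-fold, with a median log2 ratio of 1.12. The list also holds PFKM and GPD1, 2 enzymes of sugar metabolism, and GPD1, described with glycolysis, was its 1 member at least 4-fold higher. Levels of the list summed to 122322 CPM in Korean native muscle and 56425 CPM in Berkshire muscle. MYL11, the regulatory light chain of fast myosin, had 20422 CPM in Korean native against 6906 CPM in Berkshire muscle, 2.96-fold (2.92 to 2.99) higher. TNNC2, the fast troponin C, stood at 19972 CPM in Korean native and 9549 CPM in Berkshire muscle. TPM1, a tropomyosin, had 23845 CPM in Korean native and 9228 CPM in Berkshire muscle. The 1 lower member was PVALB (parvalbumin), which binds calcium in fast fibres of rodents, with 32.3 CPM in Korean native and 41.4 CPM in Berkshire muscle.

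Slow fibre genes were on the same side by smaller ratios. Of 9 measured members of the slow fibre list of 17, 7 were higher and 2 of them at least 2-fold, with a median log2 ratio of 0.64. TNNI1, the slow troponin I, had 1454 CPM in Korean native and 668 CPM in Berkshire muscle, 2.18-fold (2.09 to 2.27) higher. TNNC1, the troponin C of slow and heart muscle, had 2795 CPM in Korean native and 1549 CPM in Berkshire muscle. ANKRD2, a stretch-responsive protein of slow fibres, was 2.39-fold (2.04 to 2.79) lower with 49.8 CPM in Korean native and 119 CPM in Berkshire muscle. Fast and slow genes were thus both higher for most members.

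Genes of skeletal muscle shared by its fibres, a list that also holds the metabolic enzymes PYGM and ENO3, were divided. Of 13 measured members, 8 were higher with a median log2 ratio of 0.27, and with total counts 6 were higher with a median of -0.05. ACTN2, which anchors thin filaments at the Z-disc, had 2743 CPM in Korean native and 5686 CPM in Berkshire muscle, 2.07-fold (2.03 to 2.12) lower. Genes of calcium handling and excitation were higher for 10 of 14 members, with a median of 0.62. SLN, sarcolipin, which regulates the calcium pump, had 3491 CPM in Korean native and 1749 CPM in Berkshire muscle. Of 9 measured developmental and regeneration genes, 5 were higher with a median of 0.11, and 3 with total counts with a median of -0.21. MYH3, the embryonic myosin heavy chain, stood at 238 CPM in Korean native and 52.8 CPM in Berkshire muscle, 4.51-fold (3.96 to 5.16) higher. MYOD1, a myogenic regulator, had 45.7 CPM in Korean native and 24.8 CPM in Berkshire muscle, while its relative MYF5 had 6 counts in Korean native and 42 counts in Berkshire muscle. Myosin heavy chain genes resemble each other closely and lie side by side, so reads may be split among them, and the value of each is uncertain.

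Machinery of protein synthesis and breakdown was modestly higher. All 17 measured ribosomal protein genes of 43 listed were higher (16 with total counts), with a median log2 ratio of 0.81, and all 17 measured proteasome genes of 30 listed were higher (16 with total counts), with a median of 0.69. RPLP1, of the ribosomal stalk, had 1635 CPM in Korean native and 531 CPM in Berkshire muscle. PSMD11, of the regulatory particle of the proteasome, had 236 CPM in Korean native and 109.7 CPM in Berkshire muscle. Among muscle genes of energy buffering and purine turnover, CKMT2, the mitochondrial creatine kinase, had 1515 CPM in Korean native and 476 CPM in Berkshire muscle, 3.18-fold (3.04 to 3.33) higher. AMPD1, the muscle AMP deaminase, stood 2.17-fold (2.09 to 2.26) higher with 1436 CPM in Korean native and 661 CPM in Berkshire muscle. Its paralogue AMPD3 was 5.21-fold (2.66 to 11.4) lower, with 10 counts in Korean native and 66 counts in Berkshire muscle. The amino acid transport and metabolism list, to which these genes belong, had 12 of 18 members higher and a median of 0.42. It was divided at larger ratios, with 4 members at least 2-fold higher and 5 at least 2-fold lower.

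The genes with the largest ratios in the higher direction had varied roles. MYBPH (ENSSSCG00000030681), a thick filament protein related to myosin-binding protein C, had 1011 CPM in Korean native against 18.9 CPM in Berkshire muscle, 53.4-fold (43.9 to 65.5) higher. ADORA1, an adenosine receptor, had 647 CPM in Korean native and 17.7 CPM in Berkshire muscle, 36.6-fold (29.9 to 45.3) higher. HOXC6, a homeobox gene described further on, had 52.3 CPM in Korean native and 0.911 CPM in Berkshire muscle. CARNS1 makes carnosine, a dipeptide abundant in muscle. It stood at 462 CPM in Korean native and 61.2 CPM in Berkshire muscle, 7.54-fold (6.71 to 8.49) higher. IRS1, the adaptor that carries the insulin signal from its receptor, had 279.9 CPM in Korean native and 41.9 CPM in Berkshire muscle, 6.68-fold (5.80 to 7.73) higher. IRS1 was the 1 gene apart in a list of insulin and growth factor signalling, whose 16 measured members were divided, 9 higher with a median of 0.10 and 7 higher with total counts with a median of -0.20.

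ARG2, the mitochondrial arginase, had 75.4 CPM in Korean native and 10.6 CPM in Berkshire muscle. ACSM5, which activates medium-chain fatty acids, had 84.4 CPM in Korean native and 9.47 CPM in Berkshire muscle. SLC29A2, a nucleoside transporter, had 50.3 CPM in Korean native and 5.83 CPM in Berkshire muscle, and SLC16A5, of the monocarboxylate transporter family, had 77.3 CPM in Korean native and 7.11 CPM in Berkshire muscle. The ratios of these 4 genes were 7.14-fold (5.38 to 9.61) for ARG2, 8.91-fold (6.65 to 12.2) for ACSM5, 8.62-fold (5.93 to 12.9) for SLC29A2 and 10.9-fold (7.79 to 15.6) for SLC16A5. NTMT2, an N-terminal methyltransferase, stood at 81.2 CPM in Korean native and 5.10 CPM in Berkshire muscle, CIT, a kinase of cell division, at 35.7 CPM in Korean native and 3.64 CPM in Berkshire muscle, and SUSD1 at 26.5 CPM in Korean native and 1.09 CPM in Berkshire muscle. ASNS, asparagine synthetase, was 4.03-fold (3.10 to 5.30) higher with 55.1 CPM in Korean native and 13.7 CPM in Berkshire muscle. EGLN3, an oxygen-sensing prolyl hydroxylase, had 30.9 CPM in Korean native and 6.92 CPM in Berkshire muscle. The plot of the largest ratios shows 12 genes with a symbol in each direction.

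**Figure D2:**
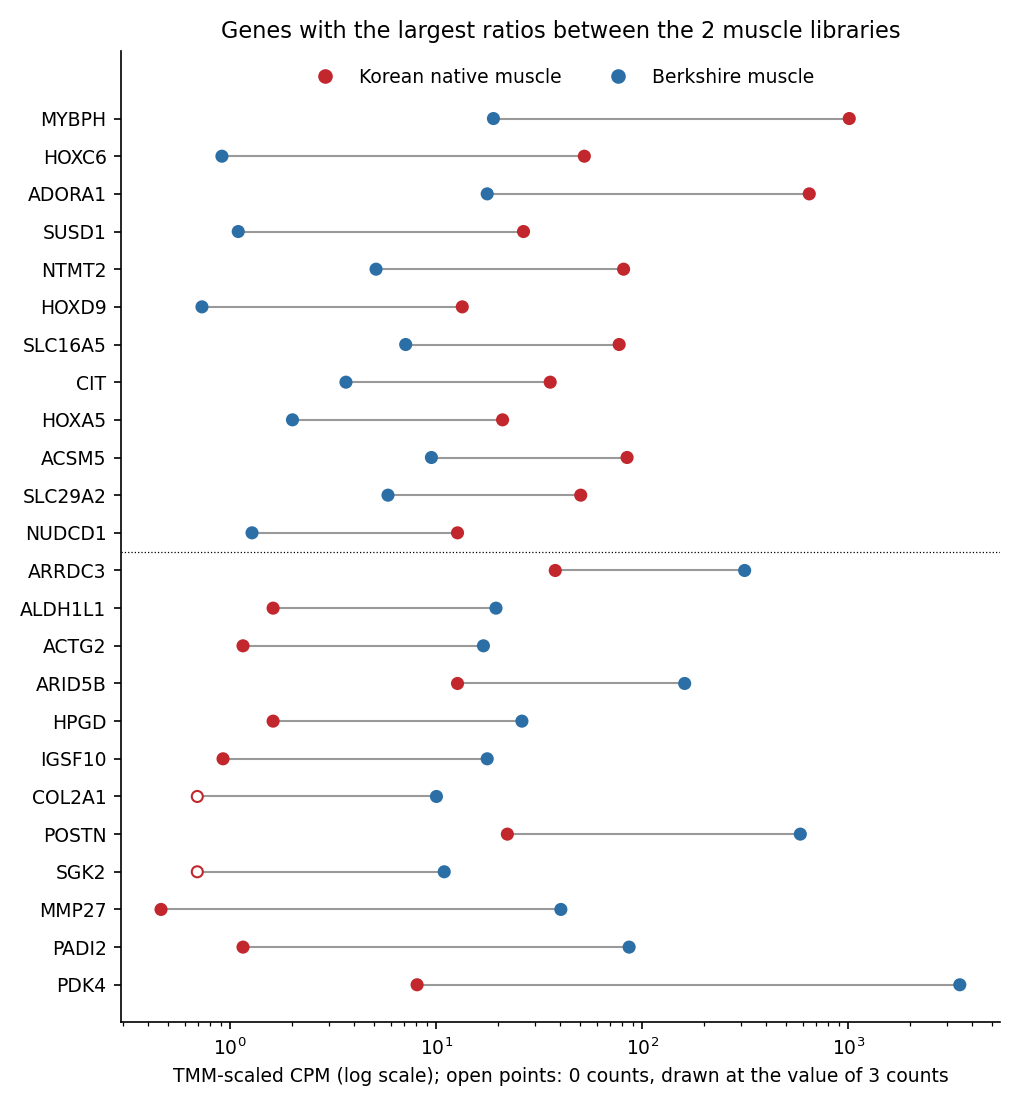
Level of the 12 genes with a symbol of largest ratio in each direction, in TMM-scaled CPM on a log scale, with 1 point for Korean native muscle and 1 for Berkshire muscle joined by a line and open points marking 0 counts. MYBPH at 1011 CPM in Korean native and 18.9 CPM in Berkshire muscle has the highest Korean native level, and PDK4 at 8.07 CPM in Korean native and 3480 CPM in Berkshire muscle has the widest gap.

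The largest difference of all genes with a symbol was that of PDK4 (ENSSSCG00000015334). It had 35 counts or 8.07 CPM in Korean native muscle, against 19101 counts or 3480.3 CPM in Berkshire muscle, lower by 431-fold (309.9 to 619). PDK4 was lower in the other tissues also, with 25.5 CPM in Korean native and 1073 CPM in Berkshire fat, and 108 CPM in Korean native and 322 CPM in Berkshire liver. The other members of the list of glucocorticoid and fasting response genes were mostly on the same side. Of 13 measured members of 25 listed, 12 were lower and 10 at least 2-fold, with a median log2 ratio of -1.28. FKBP5, a co-chaperone of the glucocorticoid receptor and a classic target of it, had 39.0 CPM in Korean native against 265 CPM in Berkshire muscle, 6.81-fold (5.81 to 8.04) lower. FOXO3, a transcription factor active in fasting, stood at 27.2 CPM in Korean native and 110.4 CPM in Berkshire muscle. KLF9, a factor induced by glucocorticoids, had 92.7 CPM in Korean native and 344 CPM in Berkshire muscle, and PER1, which is both a clock gene and a glucocorticoid target, had 138 CPM in Korean native and 334 CPM in Berkshire muscle. The 1 higher member was DUSP1, a phosphatase that also responds early to stress, with 226 CPM in Korean native and 131 CPM in Berkshire muscle. PDK4, FKBP5 and FOXO3 were the 3 members apart. In fat none of 12 measured members was higher, with a median of -1.49, and in liver the median was -0.27.

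Genes of fatty acid oxidation were divided, and those at least 4-fold different were lower. PDK4, described above with the fasting genes, is also a member of this list and had its lowest ratio. Of 20 measured members of 29 listed, 9 were higher and 11 lower, with a median log2 ratio of -0.23, against 0.06 with 10 CPM in both libraries, and 4 were higher with total counts. CPT1A, the non-muscle form of the carnitine palmitoyltransferase that admits fatty acids to mitochondria, had 12.7 CPM in Korean native and 69.1 CPM in Berkshire muscle, 5.44-fold (4.10 to 7.36) lower. The muscle form CPT1B had 57.0 CPM in Korean native and 113 CPM in Berkshire muscle. ANGPTL4, a secreted inhibitor of lipoprotein lipase induced in fasting, had 8.30 CPM in Korean native and 46.8 CPM in Berkshire muscle, and UCP3, an inner membrane carrier of muscle mitochondria, had 48.2 CPM in Korean native and 110.2 CPM in Berkshire muscle. ANGPTL4 also had the lowest ratio in the lists of hypoxia and of secreted factors described below. ACADM, a medium-chain dehydrogenase of the pathway, had 471 CPM in Korean native and 398 CPM in Berkshire muscle. Markers of muscle wasting were also divided. Of 14 measured genes of atrophy and protein breakdown, 8 were higher with a median of 0.35. TRIM63, a ubiquitin ligase of wasting muscle, was 2.37-fold (2.18 to 2.57) lower with 183 CPM in Korean native and 432 CPM in Berkshire muscle, while FBXO40, a muscle ubiquitin ligase known from mice to act on IRS1, was 2.11-fold (1.97 to 2.27) higher with 475 CPM in Korean native and 225 CPM in Berkshire muscle.

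Stress genes and regulators differed from list to list. Of 14 measured genes of oxidative stress and metal binding, 11 were higher (8 with total counts), with a median log2 ratio of 0.50. PRDX5, a peroxidase, had 22.4 CPM in Korean native and 11.1 CPM in Berkshire muscle. Regulators of mitochondria and fibre type were divided, with 12 of 19 higher and a median of 0.16, and 8 higher with total counts with a median of -0.19. ESRRA, a nuclear receptor that drives mitochondrial genes, had 173 CPM in Korean native and 82.7 CPM in Berkshire muscle, 2.09-fold (1.86 to 2.36) higher. Of 13 measured genes of hypoxia and angiogenesis, 9 were lower with a median of -0.52. P4HA1, a subunit of the enzyme that hydroxylates collagen, had 66.6 CPM in Korean native and 141 CPM in Berkshire muscle. Secreted factors of muscle were lower for 4 of 6 measured members with a median of -0.93, against -0.19 with a minimum of 1 CPM in 1 library, and genes of the neuromuscular junction for 2 of 4 with a median of -0.08.

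Clock and early response genes, which shift with the hour and with handling, gave mixed values. Of 13 measured clock genes, 8 were lower with a median log2 ratio of -0.39. NPAS2, a partner of the clock factor ARNTL, had 4.61 CPM in Korean native and 11.1 CPM in Berkshire muscle, and HLF, an output factor of the clock, had 14.8 CPM in Korean native and 31.5 CPM in Berkshire muscle. Of 11 measured immediate early genes, 8 were lower with a median of -0.09. ATF3, a stress-induced factor, stood at 27.9 CPM in Korean native and 133 CPM in Berkshire muscle, 4.76-fold (3.92 to 5.82) lower. Heat shock genes were higher for 13 of 17 members with a median of 0.15, and for 6 with total counts with a median of -0.16.

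Genes of fat storage and fatty acid synthesis stood lower in Korean native muscle. Of 13 measured members of the fatty acid and triglyceride synthesis list of 20, 10 were lower and 6 at least 2-fold, with a median log2 ratio of -0.73. FASN, the enzyme that builds fatty acids, had 60.4 CPM in Korean native and 359 CPM in Berkshire muscle, 5.95-fold (5.23 to 6.79) lower. SCD, which makes oleic acid from stearic acid, had 158 CPM in Korean native and 922 CPM in Berkshire muscle, 5.82-fold (5.37 to 6.31) lower. ACLY, which supplies the acetyl-CoA, had 12.9 CPM in Korean native and 37.5 CPM in Berkshire muscle.

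Markers of fat cells moved with these genes. Of 9 measured adipocyte markers of 16 listed, 8 were lower and 5 at least 2-fold, with a median log2 ratio of -1.44. The median was -1.02 when the scaling used the 2 muscle libraries alone, through the minimum level. The 1 higher marker had a log2 ratio of 0.20. The 10 markers matched to an ID summed to 579 CPM in Korean native muscle and 847 CPM in Berkshire muscle. PLIN1, the coat protein of fat droplets in adipocytes, had 18.9 CPM in Korean native and 95.3 CPM in Berkshire muscle, 5.04-fold (3.99 to 6.44) lower. CIDEC, which fuses such droplets, had 13.1 CPM in Korean native and 65.2 CPM in Berkshire muscle, and LIPE, hormone-sensitive lipase, had 19.6 CPM in Korean native and 79.6 CPM in Berkshire muscle. The level in muscle was 3.01% of that in fat of the same breed for PLIN1 in the Korean native pig and 8.59% in the Berkshire pig. For CIDEC these shares were 3.17% in the Korean native pig and 7.51% in the Berkshire pig, and for LIPE 3.86% in the Korean native pig and 7.60% in the Berkshire pig. FASN stood at 0.794% of its fat level in the Korean native pig and 4.97% in the Berkshire pig, and SCD at 0.643% in the Korean native pig and 17.1% in the Berkshire pig. SCD thus lay under the shares of these fat cell markers in Korean native muscle and above them in Berkshire muscle, while FASN lay under them in both. In fat, SCD was higher in the Korean native pig, with 24640.5 CPM against 5397 CPM in Berkshire fat, and FASN had 7608 CPM in Korean native and 7235 CPM in Berkshire fat. The part of fat cells in the lower FASN and SCD levels of Korean native muscle was not tested. RETN, at 0 counts in Korean native muscle, was under 5 CPM in Berkshire muscle also and so was not measured. Of 16 measured genes of cholesterol synthesis, 12 were higher with a median of 0.33, and 8 with total counts with a median of -0.04.

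All 27 measured genes of the extracellular matrix list of 30 stood lower in Korean native muscle, also with total counts. At least 2-fold lower were 18 of them and at least 4-fold lower 5, against 2.18% of all genes with at least 5 CPM that stood at least 4-fold lower and 1.44% at least 4-fold higher. The median log2 ratio was -1.35, and the summed level was 9232 CPM in Korean native muscle and 31917 CPM in Berkshire muscle. COL3A1 (ENSSSCG00000016034), a fibrillar collagen of soft tissue, had 2772 CPM in Korean native against 14519 CPM in Berkshire muscle, 5.24-fold (5.14 to 5.34) lower. COL1A2, a chain of the main collagen of tendon and bone, had 717 CPM in Korean native and 3992 CPM in Berkshire muscle, 5.57-fold (5.36 to 5.78) lower. SPARC, which binds collagen, stood at 139 CPM in Korean native and 687 CPM in Berkshire muscle. POSTN, periostin, a matrix protein of growing and healing tissue, showed the largest ratio of the list, 26.4-fold (21.6 to 32.7) lower with 22.1 CPM in Korean native and 585 CPM in Berkshire muscle. LOX, which crosslinks collagen, had 16.4 CPM in Korean native and 65.8 CPM in Berkshire muscle. DCN, the proteoglycan decorin, had 977 CPM in Korean native and 1945 CPM in Berkshire muscle. In fat, 17 of the 27 genes were higher in the Korean native pig, with a median of 0.25, and in liver the median was -0.27.

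Genes of tendon and of matricellular proteins were lower for 15 of 16 measured members, 10 of them at least 2-fold, with a median log2 ratio of -1.57. THBS1 and THBS2 are thrombospondins that act between matrix and cells. THBS1 had 53.5 CPM in Korean native and 202 CPM in Berkshire muscle, and THBS2 had 37.6 CPM in Korean native and 146 CPM in Berkshire muscle. ASPN, asporin, had 30.4 CPM in Korean native and 155 CPM in Berkshire muscle, 5.09-fold (4.24 to 6.17) lower. In fat 12 of 16 measured members of the list were also lower, with a median of -1.56, and in liver 5 of 7 with a median of -0.12. Outside this list, COL2A1, the collagen of cartilage, had 0 counts in Korean native muscle and 55 counts in Berkshire muscle, at least 14.5-fold lower when the Korean native level is set at the value of 3 counts, while its counting interval begins at 11.4-fold lower. MMP27, a matrix metalloproteinase also outside the list, had 2 counts in Korean native and 40.3 CPM in Berkshire muscle, 87.3-fold (23.9 to 725) lower.

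Markers of the cells that make matrix moved in the same direction. Of 7 measured fibroblast markers of 12 listed, 6 were lower, 4 of them at least 2-fold, with a median log2 ratio of -1.17, and the sum was 1500 CPM in Korean native muscle and 3316 CPM in Berkshire muscle. DCN, given above with the matrix genes, made up most of that sum, with 977 CPM in Korean native and 1945 CPM in Berkshire muscle. The sum is therefore not separate from the matrix levels. CLEC3B, tetranectin, had 77.5 CPM in Korean native and 328 CPM in Berkshire muscle, 4.24-fold (3.77 to 4.78) lower, and PI16, a marker of fibroblasts around vessels, had 111 CPM in Korean native and 325 CPM in Berkshire muscle. PDGFRA, the receptor by which such cells are often sorted, had 26.7 CPM in Korean native and 30.2 CPM in Berkshire muscle. The part of fibroblast number in the lower matrix levels was not tested.

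Markers of other cell types between the fibres lay at different distances. All 7 measured macrophage markers of 14 listed were lower, 6 at least 2-fold, with a median of -1.28. The 10 matched macrophage markers summed to 56.7 CPM in Korean native and 146 CPM in Berkshire muscle. MARCO, at 0 counts in Korean native muscle, was under 5 CPM in Berkshire muscle also and so was not measured. MRC1, the mannose receptor of tissue macrophages, had 13.8 CPM in Korean native and 44.6 CPM in Berkshire muscle. Endothelial markers lay closer to equal, with 6 of 9 lower, none at least 2-fold, and a median of -0.30, and the 10 matched ones summed to 655 CPM in Korean native and 715 CPM in Berkshire muscle. Of 9 measured markers of smooth muscle and pericytes, 8 were lower and 3 at least 2-fold, with a median of -0.57. The 1 higher member had a log2 ratio of 0.11. MYH11, the smooth muscle myosin, had 47.5 CPM in Korean native and 178 CPM in Berkshire muscle. ACTA2 had 116 CPM in Korean native and 289 CPM in Berkshire muscle. TAGLN had 92.2 CPM in Korean native and 195 CPM in Berkshire muscle, and CNN1 had 91.3 CPM and 150 CPM. The list summed to 6763 CPM in Korean native and 6788 CPM in Berkshire muscle. Most of that sum came from members other than MYH11, ACTA2, TAGLN and CNN1, so it does not stand for their levels. Complement genes were lower for 8 of 9 measured members, 6 at least 2-fold, with a median of -1.37. SERPING1, which inhibits the first complement component, had 242 CPM in Korean native and 729.5 CPM in Berkshire muscle, 3.01-fold (2.81 to 3.23) lower. Genes of antigen presentation and interferon were lower for 11 of 13, with a median of -0.48. At most 2 markers reached 5 CPM in the lists for lymphocytes, red blood cells, nerve and liver cells, and the 11 matched liver cell markers summed to 67.6 CPM in Korean native and 67.2 CPM in Berkshire muscle. The plot of gene lists in muscle sets these lists side by side.

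**Figure D3:**
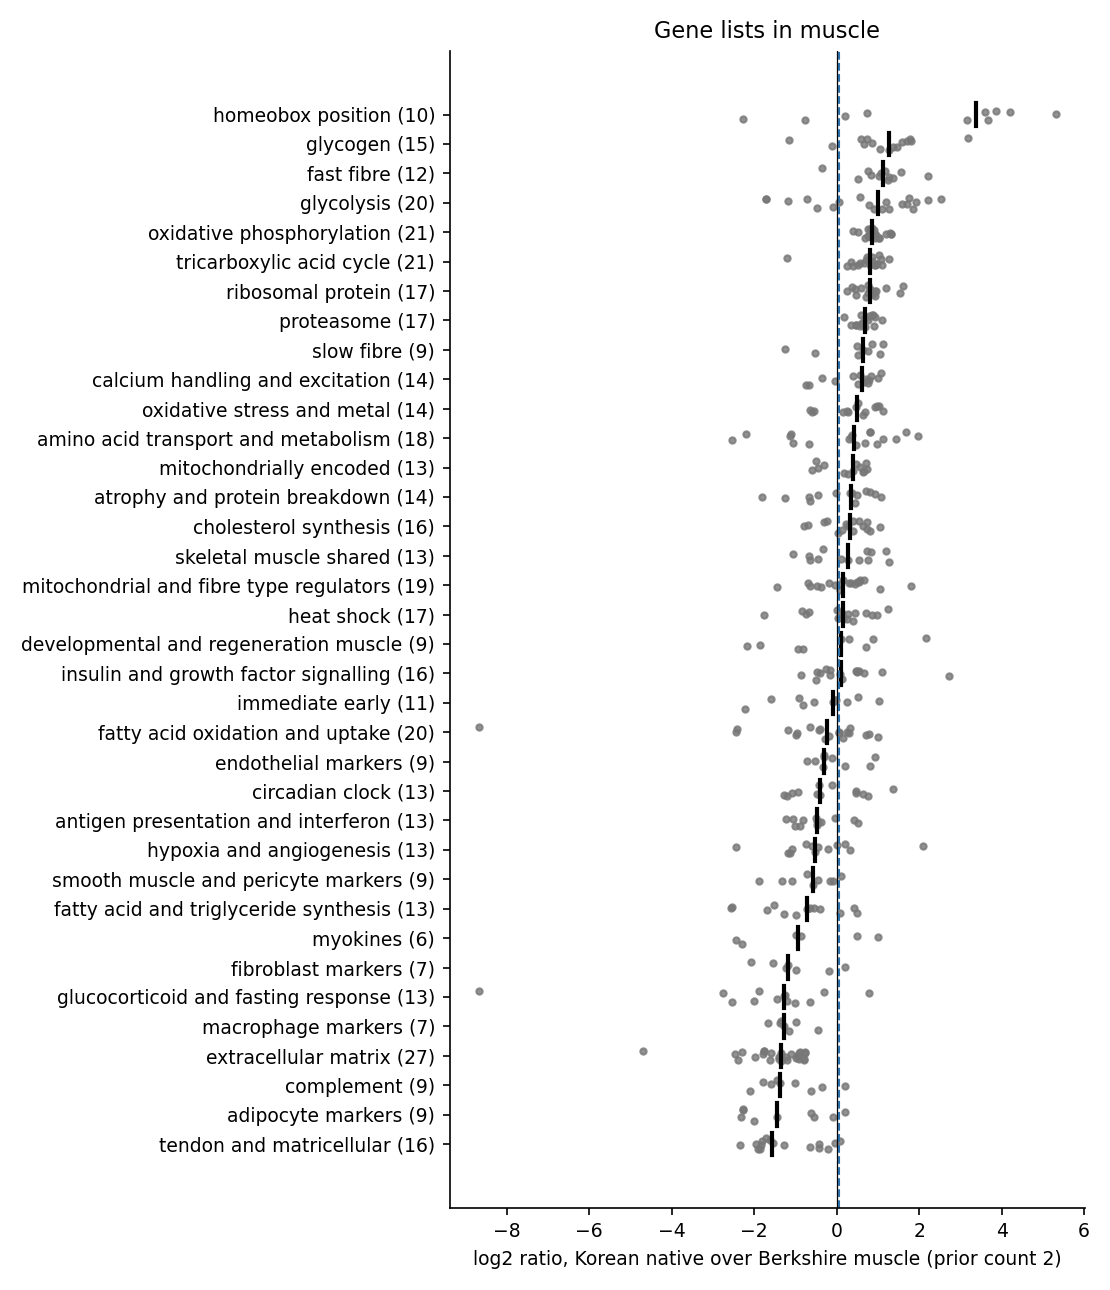
Log2 ratio of Korean native over Berkshire muscle, with a prior count of 2, for the members of each gene list with at least 5 CPM in 1 muscle library, where the number in brackets is that of members measured, each point is a gene, the bar is the list median and the dashed line the median of all genes (0.05). Respiratory and glycogen genes lie to the right and matrix, macrophage and adipocyte genes to the left, and the medians of 6 lists turn negative with total counts: skeletal muscle shared, developmental, heat shock, cholesterol synthesis, insulin signalling and fibre type regulators.

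Further genes stood far lower in Korean native muscle. PADI2, which converts arginine residues of proteins to citrulline, had 1.15 CPM in Korean native and 86.4 CPM in Berkshire muscle, 74.9-fold (31.9 to 232) lower. HPGD, which inactivates prostaglandins, had 1.61 CPM in Korean native and 26.1 CPM in Berkshire muscle, 16.1-fold (7.63 to 40.9) lower. ARID5B, a DNA-binding regulator of fat cell formation in mice, had 12.7 CPM in Korean native and 161 CPM in Berkshire muscle, 12.7-fold (9.64 to 17.0) lower. ARRDC3, an arrestin-like regulator of receptors, stood at 37.8 CPM in Korean native and 314 CPM in Berkshire muscle. FMO1, a drug-oxidising enzyme, had 33.2 CPM in Korean native and 261 CPM in Berkshire muscle, and ALDH1L1, a folate enzyme, had 1.61 CPM in Korean native and 19.5 CPM in Berkshire muscle. SLC38A4, an amino acid transporter of the amino acid list, was 5.84-fold (4.88 to 7.04) lower with 31.4 CPM in Korean native and 183 CPM in Berkshire muscle. SGK2, a kinase related to the glucocorticoid-induced SGK1, had 0 counts in Korean native muscle and 10.9 CPM in Berkshire muscle, at least 15.8-fold lower at the value of 3 counts, while its counting interval begins at 12.5-fold lower. ACTG2, the actin of gut smooth muscle, had 1.15 CPM in Korean native and 16.9 CPM in Berkshire muscle, and since actin genes are close copies its value is uncertain.

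HOX genes, which mark the position of a tissue along the body axis and are numbered from head to tail within their clusters, separated the 2 muscle libraries. Of 46 homeobox and position genes listed, 33 matched an ID and 10 reached 5 CPM, most of them through 1 library alone. Of these 10, 8 were higher in Korean native muscle, 7 with total counts, with a median log2 ratio of 3.37, against 0.57 with a minimum of 1 CPM in 1 library and 0.21 with 10 CPM in both. HOXC6 had 227 counts in Korean native and 5 counts in Berkshire muscle, 57.5-fold (24.3 to 179) higher. HOXA5 had 21.0 CPM in Korean native and 2.00 CPM in Berkshire muscle, 10.5-fold (5.58 to 21.7) higher. HOXD9 had 58 counts in Korean native and 4 counts in Berkshire muscle, 18.4-fold (6.79 to 69.6) higher. HOXC10 had 24 counts in Korean native and 0 counts in Berkshire muscle, and HOXA7 had 31 counts in Korean native and 1 count in Berkshire muscle. HOXA3 had 5.07 CPM in Korean native and 25.9 CPM in Berkshire muscle, 5.10-fold (3.24 to 8.40) lower, and HOXA2 had 1 count in Korean native and 25 counts in Berkshire muscle. HOXD1, at the head end of its cluster, went against them with 31 counts in Korean native and 0 counts in Berkshire muscle.

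Grouped by paralogue number, a split chosen after the values were seen, genes numbered 5 to 13 gave 448 counts or 103 CPM in Korean native muscle and 22 counts or 4.01 CPM in Berkshire muscle, 25.8-fold higher (16.8 to 41.5). Of these 18 genes, 9 had counts and all 9 were higher in Korean native muscle. Some of them rest on few counts: HOXB5 had 3, HOXB6 had 4 and HOXB8 had 1 in Korean native muscle, against 0 counts in Berkshire muscle. HOXB5 and HOXB8 thus did not pass the 3 counts that a count of 0 allows. Genes numbered 1 to 4 gave 128 counts or 29.5 CPM in Korean native muscle and 281 counts or 51.2 CPM in Berkshire muscle, 1.73-fold lower (1.40 to 2.15). Of these 10 genes, 3 were higher and 6 lower. Without HOXA3, a choice made after the values were seen, the other 9 genes gave 106 counts or 24.4 CPM in Korean native muscle and 139 counts or 25.3 CPM in Berkshire muscle, a ratio of 1.04-fold lower whose interval (0.799 to 1.35) spans no difference. In fat the genes numbered 5 to 13 gave 113 CPM in the Korean native pig and 182 CPM in the Berkshire pig, 1.61-fold lower (1.49 to 1.73), and in liver they summed to 3.26 CPM in the Korean native and 6.91 CPM in the Berkshire pig. ZIC1, a zinc finger gene of the same list, had 32.7 CPM in Korean native and 28.2 CPM in Berkshire muscle. The anatomical muscle from which each sample came is not stated in the labels, so breed and sampling site cannot be told apart in the muscle comparison.

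**Figure D4:**
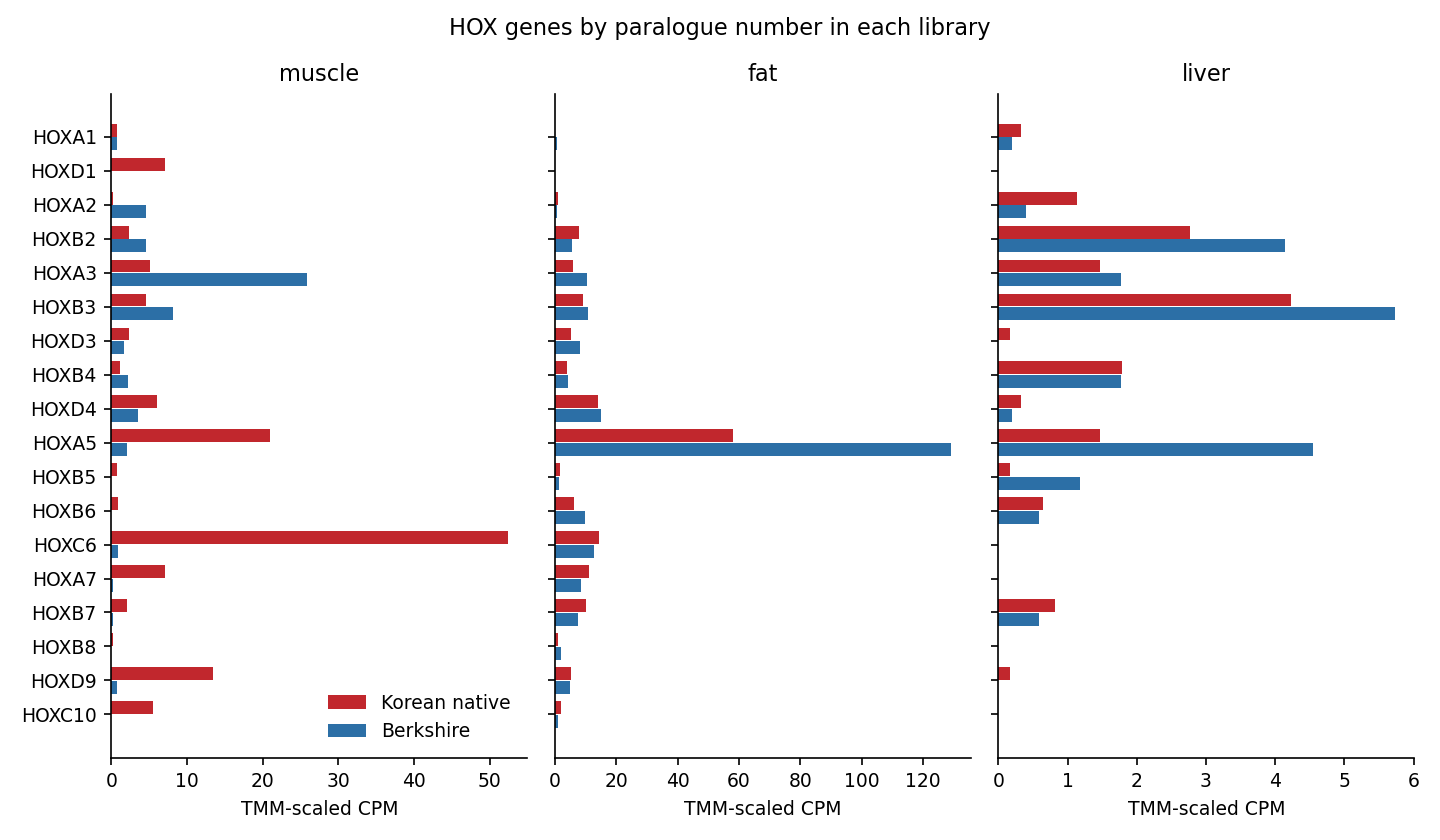
Level of each HOX gene with counts in muscle, in TMM-scaled CPM from 0, with bars for the Korean native and the Berkshire library in muscle, fat and liver, where each panel has its own scale. In muscle the genes from HOXA5 downward stand in the Korean native library, led by HOXC6 at 52.3 CPM in Korean native and 0.911 CPM in Berkshire muscle, while HOXA3 stands at 5.07 CPM in Korean native and 25.9 CPM in Berkshire muscle.

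The genes apart in muscle were looked up in fat and liver of the same breeds. Of the 147 lower genes, 131 had at least 5 CPM in fat, where 45 (34.4%) were at least 2-fold lower in the Korean native pig and 9 (6.87%) at least 2-fold higher. Over all genes in fat 3.94% were at least 2-fold lower and 4.99% higher. In liver 105 of the lower genes had at least 5 CPM, 36 (34.3%) at least 2-fold lower and 6 (5.71%) at least 2-fold higher, against 6.02% of all genes lower and 6.35% higher. Of the 103 higher genes, 58 had 5 CPM in fat, with 11 (19.0%) at least 2-fold higher and 5 (8.62%) lower. In liver 61 of the higher genes had 5 CPM, with 14 (23.0%) at least 2-fold higher and 6 (9.84%) lower.

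RER1, which retrieves proteins to the endoplasmic reticulum, was among the genes higher in every tissue, with 17.8 CPM in Korean native and 3.28 CPM in Berkshire muscle, 15.1 CPM in Korean native and 3.47 CPM in Berkshire fat, and 27.2 CPM in Korean native and 3.95 CPM in Berkshire liver. MYBPH had 5.69 CPM in Korean native fat and 7.24 CPM in Berkshire fat. POSTN, far lower in muscle, had 102 CPM in Korean native fat and 103 CPM in Berkshire fat. AOX1, an oxidase of aldehydes, had 9.45 CPM in Korean native and 49.9 CPM in Berkshire muscle, and 51.3 CPM in Korean native and 1396 CPM in Berkshire liver.

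The genes apart also differed in where else they were expressed. Of 7859 genes tested in muscle with 5 CPM in fat or liver, 1419 (18.1%) had a mean level in fat at least 2-fold that in liver. Among the lower genes this held for 73 of 134 (54.5%), and among the higher genes for 17 of 71 (23.9%). A mean level in liver at least 2-fold that in fat was found for 32 of 134 lower genes (23.9%) and 28 of 71 higher genes (39.4%), against 13.4% of all genes.

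**Figure D5:**
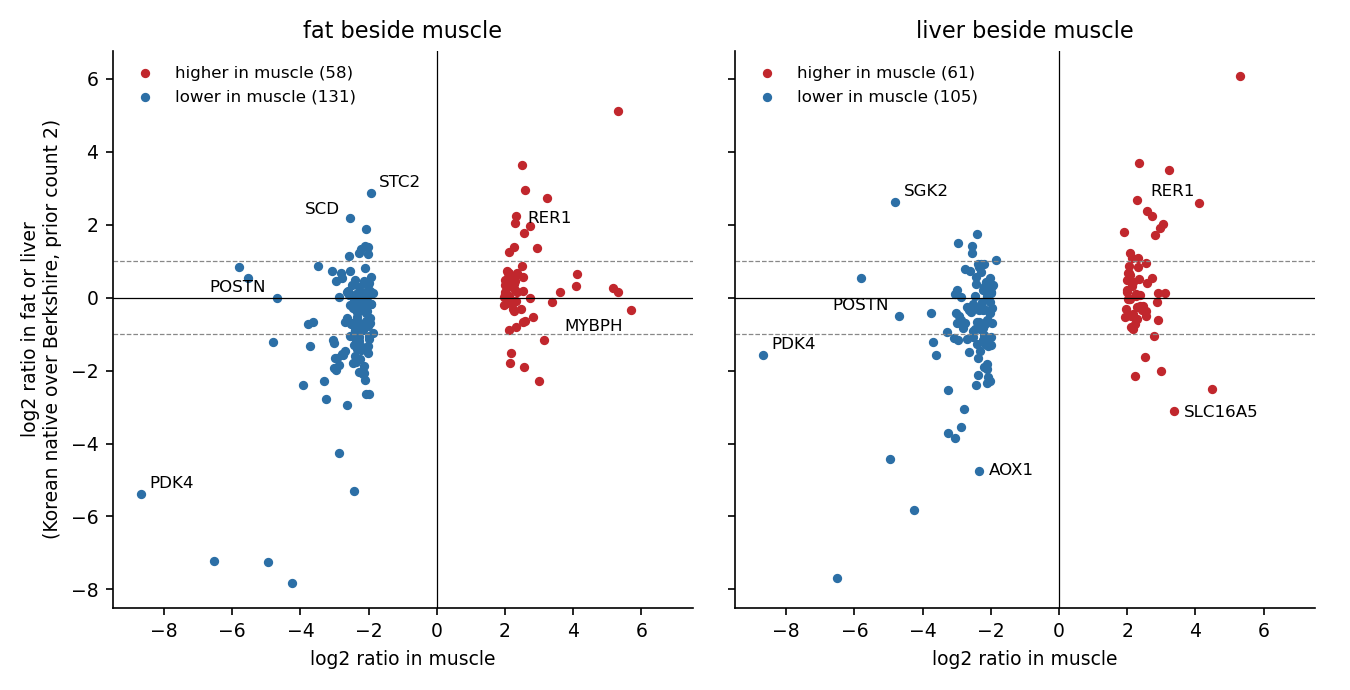
Log2 ratio of Korean native over Berkshire in fat (left) and liver (right) against that in muscle, with a prior count of 2, for the genes at least 4-fold higher or lower in muscle that reached 5 CPM in the other tissue, dashed lines marking 2-fold. PDK4 lies low in both panels, RER1 high in both, and SCD, STC2, SGK2 and SLC16A5 on opposite sides of 0 in muscle and in 1 other tissue.

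Some of the largest ratios belonged to gene IDs without a symbol, 47 of the higher and 54 of the lower genes. ENSSSCG00000021650 had 1378 counts or 318 CPM in Korean native muscle and 3 counts or 0.547 CPM in Berkshire muscle, 581-fold (199 to 2822) higher. ENSSSCG00000030134 had 357 CPM in Korean native and 0.911 CPM in Berkshire muscle, 392-fold higher. In the lower direction, ENSSSCG00000030790 had 1 count in Korean native muscle and 320 counts or 58.3 CPM in Berkshire muscle, and it was near 0 in Korean native fat and liver also, with 0.399 CPM against 88.3 CPM in Berkshire fat and 0.326 CPM against 141 CPM in Berkshire liver. ENSSSCG00000020953 had 1.38 CPM in Korean native and 67.8 CPM in Berkshire muscle, 49.0-fold lower. No name or role is given for these IDs in the tables used here.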

How the data were processed

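RNA from pig muscle, fat and liver was made into Illumina TruSeq libraries from 1 µg of total RNA, per the labels' protocols. The submitters' processing notes name TopHat, HTSeq 0.5.3p3 and the Sscrofa10.2 build. Each deposited table gives the authors' unnormalized read count for every Ensembl gene ID. How HTSeq treated strand and shared reads is not given in the sources used here, nor is the annotation release. Counts of genes that overlap, or lie antisense to each other, are therefore uncertain. The 5 closing entries that name no gene were left out, the largest being reads outside genes (49.8% of entries in Korean native muscle, 50.3% in Berkshire muscle) and reads without a unique alignment (14.3% and 16.3%). Symbols matched 11804 IDs (46.6%), which carried 82.2% of the counts in Korean native muscle and 81.3% in Berkshire muscle.

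Counts were scaled by TMM factors over 6 libraries with edgeR 4.0.16 in R 4.3.3, and DESeq2 1.42.0 gave the size factors of an alternative. A ratio is that of the scaled CPM, and its exact 95% interval (Clopper-Pearson, scipy 1.17.1 in Python 3.11.15) covers counting error only, since reads without molecular identifiers are not independent molecules. Rankings, log2 ratios of list members and list medians use a prior count of 2, and a library at 0 was set at 3 counts for a bound. List members were measured when they reached 5 CPM in 1 muscle library. The procedure was run on simulated counts with counting error alone, which hold no difference between animals.

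Members and 41 gene lists were chosen with earlier results of these data known. Named genes are, among those with a symbol, the 15 of largest ratio in each direction, up to 4 members of a list in the direction of its median with 10 CPM and those apart, the 10 of highest level, the label checks and 2 IDs without a symbol in each direction. Some genes under this rule are not reported here. Other genes named were chosen after their values were seen. Alternatives were other scalings, filters, folds and prior counts. Coordinates and sequences were not used here.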

Additional observations from a re-analysis of the deposited data

Results flagged for a closer look

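A gene was singled out here when it stood at least 4-fold apart in muscle and at least 4-fold apart the opposite way in fat or liver of the same breeds. With 1 library for each breed and tissue, the difference between tissues was not tested for any of them, and log2 ratios use a prior count of 2.

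SCD, the desaturase that makes oleic acid, had a log2 ratio of -2.54 in muscle and 2.19 in fat. Its level was 158 CPM in Korean native and 922 CPM in Berkshire muscle, and 24640.5 CPM in Korean native and 5397 CPM in Berkshire fat. STC2, a secreted glycoprotein, had a log2 ratio of -1.94 in muscle and 2.87 in fat, with 3.46 CPM in Korean native and 14.4 CPM in Berkshire muscle, and 26.5 CPM in Korean native and 3.47 CPM in Berkshire fat.

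SLC16A5, of the monocarboxylate transporter family, had a log2 ratio of 3.37 in muscle and -3.11 in liver. It had 77.3 CPM in Korean native and 7.11 CPM in Berkshire muscle, and 3.58 CPM in Korean native and 33.6 CPM in Berkshire liver. SGK2, a kinase, had a log2 ratio of -4.80 in muscle and 2.61 in liver, with 0 CPM in Korean native and 10.9 CPM in Berkshire muscle, and 69.5 CPM in Korean native and 11.1 CPM in Berkshire liver.

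Of IDs without a symbol, ENSSSCG00000008203 had a log2 ratio of 3.00 in muscle, -2.28 in fat and -2.02 in liver. ENSSSCG00000004329 had a log2 ratio of 4.50 in muscle and -2.50 in liver, and ENSSSCG00000025973 had 2.23 in muscle and -2.14 in liver. Outliers within a group could not be looked for, since each group holds 1 library.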

How the results depend on the processing

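Counts of genes at least 4-fold higher and lower in Korean native muscle were 103 and 147. They were 57 higher and 238 lower with total counts, 301 higher and 466 lower with no minimum level, 276 and 466 with a minimum of 1 CPM, and 41 and 54 with 10 CPM required in both libraries. At 2-fold they were 942 higher and 778 lower. With the whole counting interval past 4-fold they were 60 and 63, and among genes with a symbol 56 and 93. DESeq2 size factors gave 109 higher and 138 lower, and upper-quartile factors 96 and 157. TMM from the 2 muscle libraries gave 97 higher and 125 lower. It has the same ratio of library sizes as the main scaling (1.27, Berkshire over Korean native), so only the genes that reach 10 CPM differ. Lists with a median log2 ratio of at least 0.5 numbered 11, and 5 with total counts, and lists at -0.5 or under numbered 12, and 19 with total counts.

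For the look-up in fat and liver, alternatives were chosen after seeing the data. With total counts, genes lower in muscle and at least 2-fold higher in fat numbered 17 against 9, genes higher in muscle and in liver 8 against 14, and genes lower in muscle and higher in liver 12 against 6. With 10 CPM in both muscle libraries, the higher genes gave 3 higher and 2 lower in fat and 1 higher and 2 lower in liver, and the lower genes gave 2 higher and 17 lower in fat and 3 higher and 11 lower in liver.

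With total counts 26 of 41 list medians and 116 of 185 named genes moved by more than their counting interval. DESeq2 size factors moved 3 list medians and 18 named genes, upper-quartile factors 3 and 24, and a prior count of 0.5 no named gene. TMM from the 2 muscle libraries moved 1 list median through the minimum level, that of adipocyte markers (-1.02, against -1.44). It could move no named gene, since it leaves every ratio as it was. A minimum of 1 CPM moved the medians of 2 lists, those of homeobox genes (0.57, against 3.37) and of secreted factors of muscle (-0.19, against -0.93). With 10 CPM in both libraries 6 moved: homeobox genes to 0.21, fatty acid oxidation to 0.06 (against -0.23), glycolysis to 1.15 (against 1.00), amino acid genes to 0.70 (against 0.42), tendon genes to -1.13 (against -1.57) and immediate early genes to -0.55 (against -0.09). No paired analysis was possible because each breed has 1 muscle library and no test was made, and for the same reason no replicate could be left out. At this depth a gene at 0 counts may stand at up to 0.692 CPM in Korean native or 0.547 CPM in Berkshire muscle. Ratios of genes with few counts, such as the 2 counts of MMP27 in Korean native muscle, have wide intervals.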
